A study of Mus musculus with 6 samples.

Results

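The 9 genes described here encode the transcription factors that define the hepatocyte: Hnf4a, Cebpa, Cebpb, Foxa1, Foxa2, Foxa3, Onecut1, Nr5a2 and Prox1. They were chosen by name, as probes that are not array controls and carry one of these gene names. They have 15 probes, of 41174 probes and 27376 gene names on the array. Hnf4a and Prox1 have 3 probes each, Cebpa and Cebpb have 2 each, and the other 5 genes have 1 each. Livers came from male BALB/c mice, 6 weeks old at the start, and both groups were followed for 12 months. The 3 treated mice drank water with 100 µg/L of microcystin-LR (MC-LR), a cyanobacterial toxin that is taken up by hepatocytes and inhibits protein phosphatases 1 and 2A, and the 3 control mice drank sterile water. Each liver came from a separate mouse and was measured alone on a single-colour (Cy3) Agilent mouse array. The question of the series is which liver genes are expressed differently after MC-LR.

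Hepatocyte identity is held by a network of factors that bind each other's promoters and those of liver genes. The FOXA proteins open liver chromatin early in development, and HNF4A, a nuclear receptor, maintains the expression of a large share of hepatocyte genes in the adult. C/EBP alpha and C/EBP beta, basic leucine zipper proteins, drive metabolic and acute phase genes, while HNF6 (Onecut1), LRH-1 (Nr5a2) and PROX1 act on bile acid, lipid and glucose genes and on the early outgrowth of liver cells.

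Over the arrays, 64.9% to 73.7% of the spots that were not controls lay well above background, and 0 were saturated. Controls 1 and 2 were on slide 1, while control 3 and all 3 MC-LR arrays were on slide 2, so each result was also computed with slide as a block, which sets the MC-LR arrays in effect against control 3. All 15 probes of the 9 factors were well above background on all 6 arrays, between the 59.7th and the 96.0th percentile of probe signal. The defining hepatocyte markers were bright on every array, with Alb at 18.01 to 18.22 (log2). The number of arrays limits the precision.

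The probes that lie in coding sequence show what the array reads. They are shown because 4 of them lie over the DNA-binding or dimerisation part of the protein, so that paralogs could share sequence there. The Hnf4a probe lies in the zinc finger region, the Cebpa and Cebpb probes in the leucine zipper, the Onecut1 probe in the homeodomain, and the Prox1 probe spans an exon junction, with its ends 7058 bases apart in the genome. Sequences are those in the scanner files, 60 bases each.
Hnf4a probe 3, mm9 chr2:163378302-163378361, plus strand: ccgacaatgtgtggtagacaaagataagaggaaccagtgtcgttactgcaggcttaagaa
Cebpa probe 1, mm9 chr7:35905361-35905420, plus strand: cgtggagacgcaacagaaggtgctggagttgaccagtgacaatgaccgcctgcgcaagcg
Cebpb probe 1, mm9 chr2:167515309-167515368, plus strand: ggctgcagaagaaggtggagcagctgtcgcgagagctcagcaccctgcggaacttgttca
Onecut1, mm9 chr9:74737272-74737331, plus strand: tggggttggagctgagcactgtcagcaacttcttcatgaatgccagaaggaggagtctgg
Prox1 probe 2, mm9 chr1:191977369-191984426, minus strand: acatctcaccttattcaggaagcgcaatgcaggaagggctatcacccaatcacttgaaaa
Shifted by up to 30 bases without gaps, the Cebpa and Cebpb zipper probes at best shared 30 identical bases over an overlap of 55. The unrelated Onecut1 probe and Hnf4a probe 3 shared 23 over 51. Probes were compared only with each other and not with the transcripts of paralogs. Whether a probe also reads a paralog was therefore not tested.

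Of the 15 probes, 0 passed an adjusted p under 0.05 (limma, Benjamini-Hochberg adjustment over all 28506 probes tested), where 3 probes of the whole array did (0.0105%). At an unadjusted p under 0.05 there were 3 member probes, 2 higher and 1 lower, while 12.9% of all probes lay under that value, 7.89% higher and 5.03% lower. They were Onecut1 and Cebpa probe 1 on the higher side and Foxa3 on the lower side. The 3 arrays of each group were fully apart for 2 of the 15 probes, Cebpa probe 1 (higher) and Foxa3 (lower), against 20.3% of all probes, 11.7% with MC-LR higher and 8.54% with MC-LR lower. These shares lie near the background of the array and are no result about the 9 factors as a set. The median log2 difference was 0.01 over the 15 probes and 0.002 over all probes tested. Above 0 were 9 member probes and below it 6, where 49.6% of all probes tested lay below 0. In bulk liver, fewer cells of a type and less RNA per cell cannot be told apart.

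**Figure D1:**
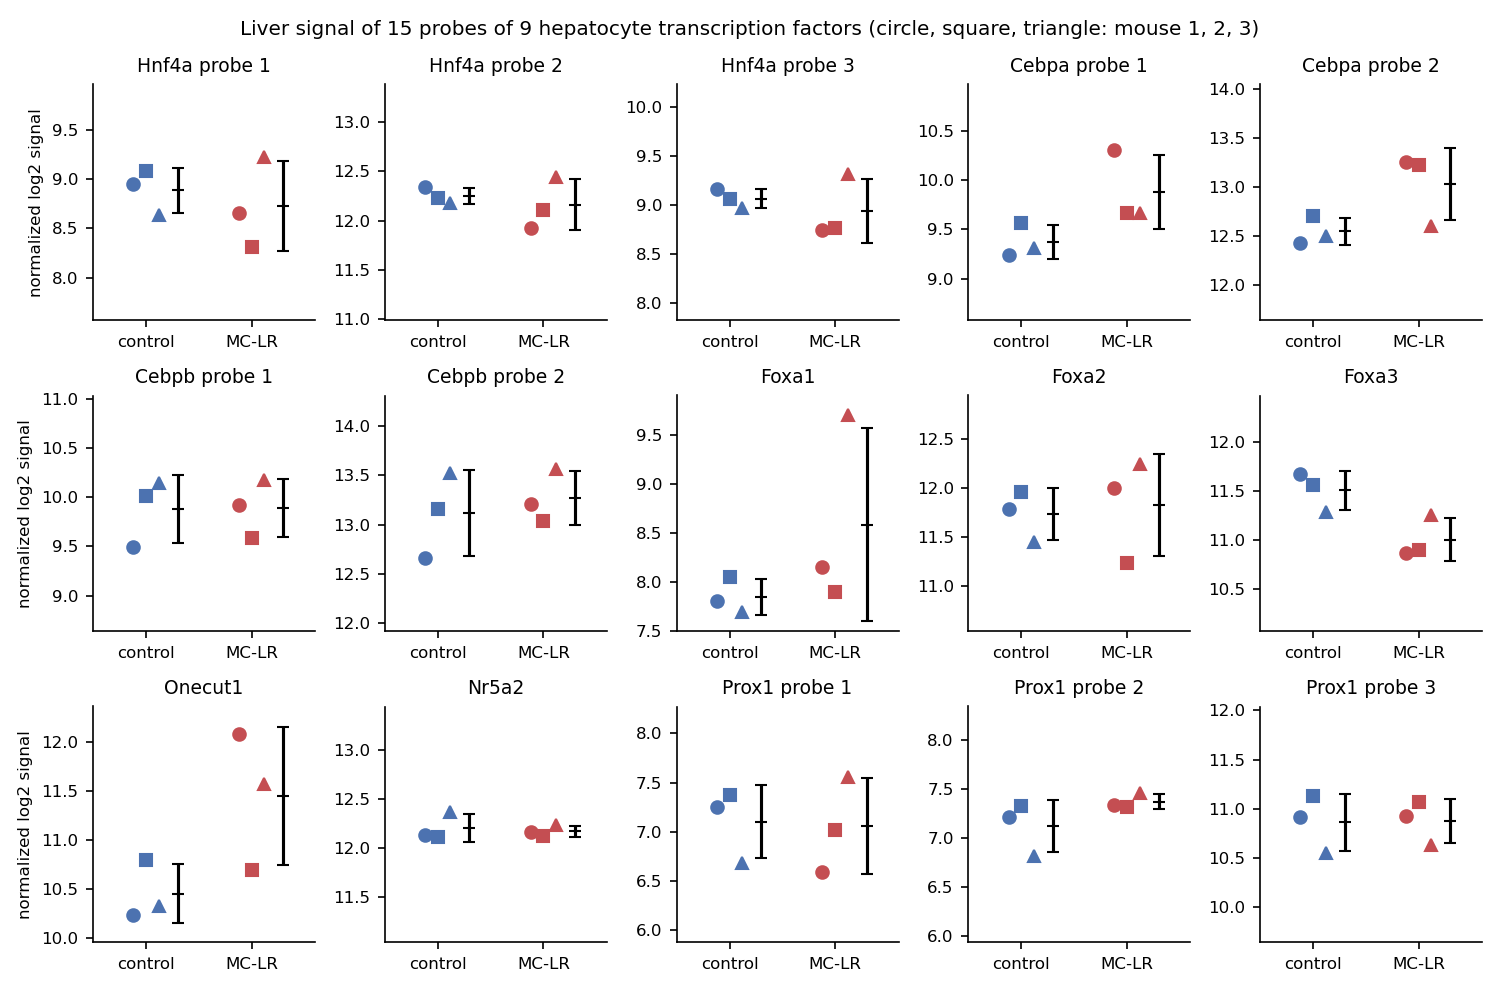
Normalized log2 signal (vertical axis, 2.4 units in every panel) of each of the 15 probes in the 3 control and 3 MC-LR livers, with mean and SD beside the points. The control and MC-LR points are apart for Foxa3 and for Cebpa probe 1, while Foxa1 has a single MC-LR liver, mouse 3 at 9.70, above all others.

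HNF4A is the nuclear receptor at the centre of the adult network. Its brightest probe, probe 2 (mm9 chr2:163398074-163398133), stood at 12.34, 12.23 and 12.18 in controls 1 to 3 and at 11.93, 12.11 and 12.44 in MC-LR mice 1 to 3 (normalized log2 signal). The groups overlapped, with MC-LR 3 the highest and MC-LR 1 the lowest of all 6 livers. The difference was -0.09 ± 0.15 (log2, SE, n = 3 per group; 95% interval -0.46 to 0.28; adjusted p = 0.836). The coding probe 3 gave -0.13 ± 0.18 and probe 1 gave -0.16 ± 0.25, so all 3 probes had a difference close to 0 with intervals on both sides of it. On each of the 3 probes MC-LR 3 was the highest liver, at 9.22 on probe 1 and 9.31 on probe 3. Without MC-LR 3 the differences were -0.41, -0.23 and -0.31 for probes 1 to 3 (unadjusted p = 0.0879, 0.110 and 0.0370, limma), and with other arrays left out probe 3 came as near to 0 as -0.03. With slide as a block they were 0.09, -0.02 and -0.03.

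Hnf4a is transcribed from separate start sites. The 250 bases before the upstream start in RefSeq (GRCm38.p6) are shown because, of the Hnf4a windows, they hold a match to the motif of another of the 9 factors, the ONECUT motif (ATCAAT), in capitals. Motifs were searched on both strands.
Hnf4a upstream start, GRCm38.p6 chr2:163506607-163506856, plus strand: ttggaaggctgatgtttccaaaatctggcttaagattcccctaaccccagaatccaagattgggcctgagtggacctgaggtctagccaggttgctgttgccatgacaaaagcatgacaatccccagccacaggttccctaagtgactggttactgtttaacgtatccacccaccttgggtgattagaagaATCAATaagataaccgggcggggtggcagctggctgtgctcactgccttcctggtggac
The ONECUT motif is in 7.54% of the 32851 RefSeq promoters of 300 bases. Among the 14 promoters listed for the 9 genes, 2 held the ONECUT motif, those of Foxa2 and of the upstream Hnf4a start, and 1, that of Foxa1, held the FOXA motif TGTTTAC (3.65% of all promoters). A C/EBP motif (TTGCGCAA) and an HNF4 motif (CAAAGTCCA) were in 0 of the 14, against 0.183% and 0.475% of all promoters. A match is a description of these letters only. The window at the other Hnf4a start held 0 matches to these motifs, and which start these livers used was not tested.

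C/EBP alpha represses hepatocyte proliferation and drives gluconeogenic, glycogen and urea cycle genes. Its brighter probe 2 (mm9 chr7:35906517-35906576) stood at 12.44, 12.71 and 12.50 in controls and at 13.25, 13.23 and 12.60 with MC-LR. MC-LR 1 and 2 were above all controls and MC-LR 3 lay within their range. The difference was 0.48 ± 0.20 (log2, SE, n = 3 per group; 95% interval -0.01 to 0.97), 1.39-fold, with an unadjusted p = 0.0538 and an adjusted p = 0.391. On the zipper probe 1 the controls stood at 9.24, 9.56 and 9.31 and the MC-LR livers at 10.31, 9.66 and 9.66, so that all 3 MC-LR livers were above all controls. The difference there was 0.51 ± 0.21, 1.42-fold (unadjusted p = 0.0497, adjusted p = 0.386). MC-LR 1 was the highest liver on both probes, while MC-LR 2 stood with MC-LR 1 on probe 2 and with MC-LR 3 on probe 1. Blocking on slide gave 0.56 ± 0.31 and 0.53 ± 0.30 for probes 1 and 2. With 1 array left out, probe 1 gave 0.29 to 0.61 and probe 2 gave 0.37 to 0.69. The lowest values were those without MC-LR 1 (unadjusted p = 0.0990 and 0.160), and probe 2 was highest without MC-LR 3 (unadjusted p = 0.00266).

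C/EBP beta is raised in the acute phase and in regeneration. Probe 2 (mm9 chr2:167515847-167515905) stood at 12.66, 13.16 and 13.53 in controls and at 13.21, 13.03 and 13.57 with MC-LR. The control livers alone spanned 0.87, from control 1 as the lowest of the 6 to control 3, and only MC-LR 3 lay above them. The difference was 0.16 ± 0.25 (95% interval -0.46 to 0.77; adjusted p = 0.825), and that of the zipper probe 1 was 0.01 ± 0.23 (adjusted p = 0.990). Both probes placed control 1 lowest and MC-LR 3 highest. Control 3 was the highest control on both, and with slide as a block the differences were on the other side of 0, at -0.25 and -0.26. Myeloid cells also express Cebpb. The summed signal of the 4 tested of 6 neutrophil markers was 12.90 to 13.65 in controls and 11.72 to 13.21 with MC-LR (log2). That of the 8 Kupffer and macrophage markers was 15.31 to 16.01 and 14.86 to 15.56. S100a9 alone made up 78.2% to 84.2% of the neutrophil sum, and Cd5l 49.6% to 59.5% of the other. The part of myeloid cells in the Cebpb values was not tested.

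The FOXA factors are pioneer proteins with closely related forkhead domains. Foxa3, known for maintaining the glucose transporter gene Slc2a2 (Glut2) in fasting mouse liver, stood at 11.68, 11.56 and 11.29 in controls and at 10.87, 10.90 and 11.25 with MC-LR (mm9 chr7:19599053-19599112). All 3 MC-LR livers were below all 3 controls, though MC-LR 3 lay only just below control 3. The difference was -0.50 ± 0.16 (log2, SE, n = 3 per group; 95% interval -0.89 to -0.11), 1.41-fold lower, with an unadjusted p = 0.0202 and an adjusted p = 0.314. Within the slide block it was -0.28 ± 0.19 (unadjusted p = 0.211), and with 1 array left out it was from -0.62 without MC-LR 3 (unadjusted p = 0.00876) to -0.41 without control 1 (unadjusted p = 0.0688).

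Foxa1 (mm9 chr12:58641996-58642055) stood at 7.80, 8.05 and 7.69 in controls and at 8.15, 7.90 and 9.70 with MC-LR. MC-LR 3 alone stood apart, while MC-LR 1 and 2 lay in or just above the control range. The difference of 0.74 ± 0.47 (95% interval -0.40 to 1.88; adjusted p = 0.546) was 0.18 without MC-LR 3, so its size rests on that liver. It was 0.89 ± 0.71 with slide as a block.

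Foxa2, a factor for bile acid and lipid genes in the adult liver, has a probe printed in 10 spots on each array (mm9 chr2:147868698-147868757), which gives a measure of technical error that the other members lack. It stood at 11.79, 11.96 and 11.45 in controls and at 12.00, 11.24 and 12.24 with MC-LR. MC-LR 3 was the highest and MC-LR 2 the lowest of the 6 livers, and the difference was 0.09 ± 0.28 (95% interval -0.60 to 0.78; adjusted p = 0.915). The SD among the 10 spots of an array was 0.0553 to 0.0718 (log2 processed signal). On that same scale, before normalization, the array means of the controls were 11.60, 11.67 and 11.67, an SD of 0.0384. Those of the MC-LR arrays had an SD of 0.471, with MC-LR 1 and 3 above the controls and MC-LR 2 below. The SD among spots is that of single spots, and a mean of 10 spots varies less. The array means also hold differences in brightness between arrays, which normalization removes. After normalization the SD between mice was 0.26 in controls and 0.52 in MC-LR livers. The difference with slide as a block was 0.38 ± 0.39.

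**Figure D2:**
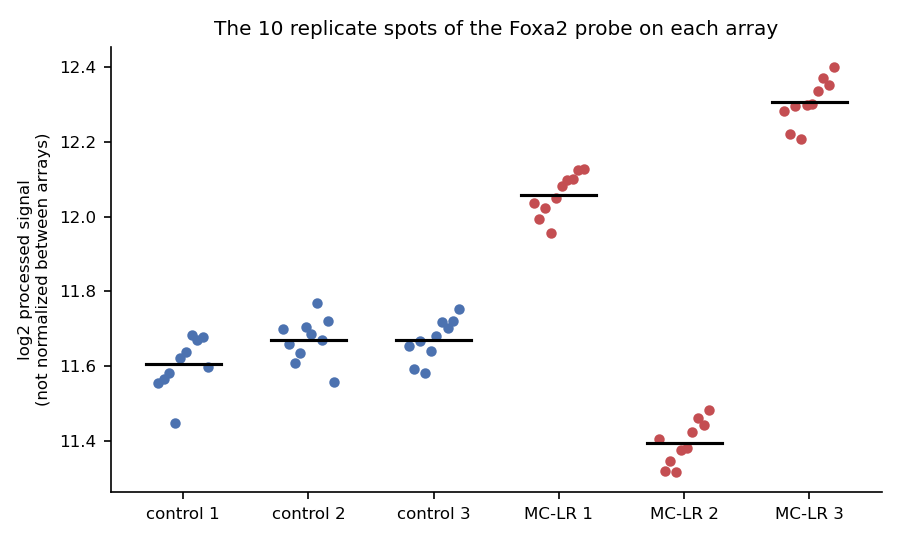
Log2 processed signal, before normalization between arrays, of the 10 spots of the Foxa2 probe on each of the 6 arrays, with the array mean as a bar. The spots of an array lie close together (SD 0.0553 to 0.0718), and the MC-LR arrays lie apart from each other, with means of 12.06, 11.40 and 12.31 for mice 1 to 3.

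HNF6, the product of Onecut1, acts in hepatocytes and in bile duct cells and has Foxa2 and Hnf4a among its known targets. Onecut1 had the largest difference of the 9 genes. It stood at 10.23, 10.80 and 10.33 in controls and at 12.08, 10.69 and 11.57 with MC-LR. MC-LR 1 and 3 were above all controls and MC-LR 2 lay within their range, so the groups overlapped. The difference was 0.99 ± 0.36 (log2, SE, n = 3 per group; 95% interval 0.11 to 1.88), 1.99-fold, with an unadjusted p = 0.0331 and an adjusted p = 0.352. It was 1.12 ± 0.55 with slide as a block (unadjusted p = 0.0968), and with 1 array left out it was from 0.68 without MC-LR 1 (unadjusted p = 0.0870) to 1.37 without MC-LR 2 (unadjusted p = 0.00244). Of the 9 markers of bile duct cells, 7 were tested, with Cftr not well above background and Sox9 at -0.73 (adjusted p = 0.254, limma). The 7 summed to 13.68 to 14.19 in controls and 13.44 to 14.07 with MC-LR. Spp1 alone made up 33.4% to 64.2% of that sum. Onecut2, another bright marker there, also stands in the list of other liver factors below. The part of bile duct cells in the Onecut1 values was not tested.

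LRH-1, the product of Nr5a2, is a nuclear receptor for bile acid synthesis and cholesterol transport genes. Nr5a2 (mm9 chr1:138740903-138740962) stood at 12.13, 12.11 and 12.37 in controls and at 12.16, 12.12 and 12.23 with MC-LR, the narrowest spread among MC-LR livers of the 15 probes (SD 0.0580). The difference was -0.03 ± 0.11 (95% interval -0.30 to 0.24; adjusted p = 0.925). This interval is that of the fit without slide. Blocked on slide, the difference was -0.20 ± 0.12.

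PROX1, a homeodomain factor, partners HNF4A and LRH-1 as a corepressor and also marks lymphatic endothelium. Its brightest probe, probe 3 (mm9 chr1:191942646-191942705), stood at 10.91, 11.13 and 10.55 in controls and at 10.92, 11.07 and 10.63 with MC-LR. The groups covered nearly the same range, with a difference of 0.01 ± 0.19 (95% interval -0.45 to 0.47; adjusted p = 0.986). The exon junction probe 2 stood at 7.21, 7.33 and 6.82 against 7.34, 7.32 and 7.45, a difference of 0.25 ± 0.15 (adjusted p = 0.537), and probe 1 gave -0.05 ± 0.30. Control 3 was the lowest control on each of the 3 probes. With slide as a block, probe 2 had a difference of 0.55 ± 0.13 (unadjusted p = 0.00788, adjusted p = 0.196), while without control 3 it had 0.0986 (unadjusted p = 0.381). Under the slide block, probes 1 and 3 had 0.38 ± 0.37 and 0.32 ± 0.21. The 6 lymphatic endothelial markers summed to 11.74 to 11.84 in controls and 11.42 to 11.74 with MC-LR, and Reln alone made up 81.3% to 90.3% of that sum. Their part in the Prox1 values was not tested.

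**Figure D3:**
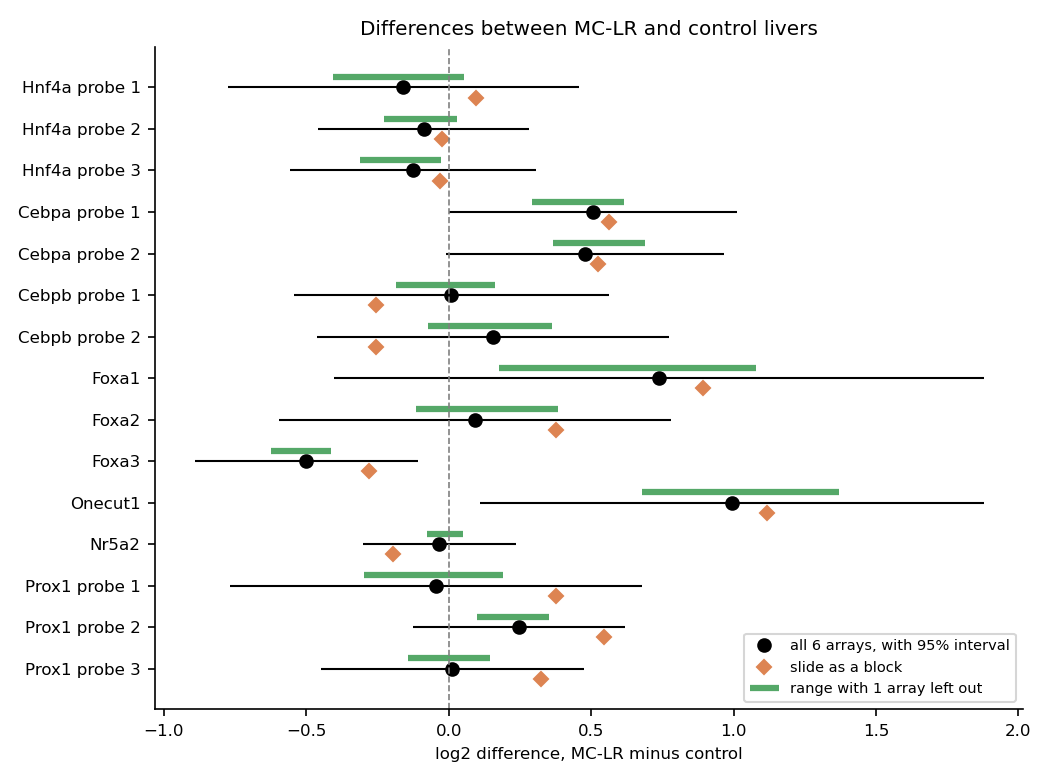
Log2 difference between MC-LR and control livers (horizontal axis) for each of the 15 probes, with the 95% interval of the fit on all 6 arrays (limma), the value with slide as a block and the range with 1 array left out. Cebpa, Foxa1, Foxa3, Onecut1, Hnf4a probe 3 and Prox1 probe 2 keep their side of 0 in every setting drawn, and the intervals of Foxa3, Onecut1 and Cebpa probe 1 do not include 0.

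Several of the factors varied widely among the treated livers. MC-LR 3 was the highest of the 6 livers on 9 of the 15 probes, those of Hnf4a, Cebpb, Foxa1, Foxa2 and 2 probes of Prox1, while 20.7% of all probes were highest on that array. The SD among MC-LR livers was above that among controls on 10 of the 15 probes, against 44.9% of all probes. Both counts were made after the values were seen, and probes of the same gene share their RNA.

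The other factors of the network were read from a list of 34 liver-enriched factors and nuclear receptors, of which 32 were tested by their brightest probe. Adjusted over all probes, 0 of them passed, where 3 of 18906 genes did by that probe (0.0159%). At an unadjusted p under 0.05 there were 3 higher and 2 lower, where 7.52% and 5.36% of all genes lay higher and lower. The list's median difference was 0.22, with 22 genes above 0 and 10 below. Over all genes the median was -0.01, with 48.5% above 0. Esrra, an orphan receptor for mitochondrial genes, averaged 11.50 (control) and 12.21 (MC-LR), a difference of 0.71 ± 0.10 (adjusted p = 0.163). Nr0b2, the corepressor SHP that LRH-1 activates, averaged 9.94 and 8.96, a difference of -0.98 ± 0.21 (adjusted p = 0.240). Rxra, the partner of many nuclear receptors, averaged 14.44 and 14.98, a difference of 0.54 ± 0.15 (adjusted p = 0.276) that was 0.29 with slide as a block. The groups did not overlap for these 3 genes, which were named for having the smallest p of the list. In the whole list 6 genes lay apart higher and 2 lower, against 11.7% and 8.54% of all probes.

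Lists of textbook targets of the 9 factors had members on both sides of 0, and 0 genes of these lists passed the adjusted threshold over all probes (limma). Of all genes, 48.5% lay above 0, the share to set beside the count of each target list. Some genes, such as G6pc and Slc2a2, stand in several lists. Among the HNF4A targets, 17 of 26 lay above 0 with a median of 0.10. At an unadjusted p under 0.05 only G6pc was found there, on the lower side (5.36% of all genes lower and 7.52% higher). G6pc, the glucose-releasing phosphatase, gave -1.10 ± 0.34 (-0.33 with slide as a block). Apoc2 gave -0.30 and Lipc 0.29. Among the C/EBP targets, 11 of 23 lay above 0 with a median of -0.02, and 2 were higher and 3 lower at an unadjusted p under 0.05 (7.52% and 5.36% of all genes). Gys2, the liver glycogen synthase, averaged 14.02 and 15.24, a difference of 1.23 ± 0.18 (adjusted p = 0.163). Lcn2, an acute phase protein, averaged 14.98 and 13.67, a difference of -1.31 ± 0.35 (adjusted p = 0.268). Control 3 was the lowest control for Gys2, and its difference with slide as a block was 1.45.

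Among the FOXA targets, 9 of 15 lay above 0 with a median of 0.12, and 1 was higher and 3 lower at an unadjusted p under 0.05 (7.52% and 5.36% of all genes). Slc2a2, the glucose transporter named above, averaged 12.70 and 13.67, a difference of 0.97 ± 0.22 (adjusted p = 0.245). Igfbp1 and Pdk4, which insulin represses and fasting induces, gave -2.37 ± 0.61 (adjusted p = 0.262) and -1.33 ± 0.36 (adjusted p = 0.269), and -1.59 and -0.71 with slide as a block. In both, the control 3 level was the lowest of the controls. Among the NR5A2 targets, 10 of 16 lay above 0 with a median of 0.11, and 1 was higher and 1 lower at an unadjusted p under 0.05 (7.52% and 5.36% of all genes). Abcg5, a sterol transporter, gave 0.73 ± 0.25 and Abcb11, the bile salt export pump, -0.50 ± 0.21, which was -0.14 with slide as a block. Among 12 tested targets and partners of PROX1 and ONECUT1, 7 lay above 0 with a median of 0.07. Only Slc2a2, given above, had an unadjusted p under 0.05, on the higher side (7.52% of all genes), followed by Cyp7a1, the rate-limiting enzyme of bile acid synthesis, at 0.65 ± 0.34 and the corepressor partner Hdac3 at 0.17 ± 0.10.

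The secreted products by which hepatocytes are known lay mostly just below 0, with 20 of 28 tested below it and a median of -0.06. The other 8 lay above 0, where 48.5% of all genes did. At an unadjusted p under 0.05, 2 were lower (5.36% of all genes). Quantile normalization gives the brightest probes nearly the same values on each array, which narrows differences there. Hpx stood at 18.66 on every control array and on MC-LR 2 and 3. With slide as a block 14 of the 28 lay below 0. Fgb and Itih3, acute phase proteins, gave -0.50 ± 0.15 and -0.46 ± 0.14 with groups apart. Fga gave -0.64 ± 0.26, which was -0.05 with slide as a block. None of these 3 passed over all probes, with adjusted p from 0.293 to 0.387 (limma). In the whole list 3 genes lay apart lower and 1 higher, against 8.54% and 11.7% of all probes. Alb averaged 18.07 in controls and 18.18 in MC-LR livers.

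**Figure D4:**
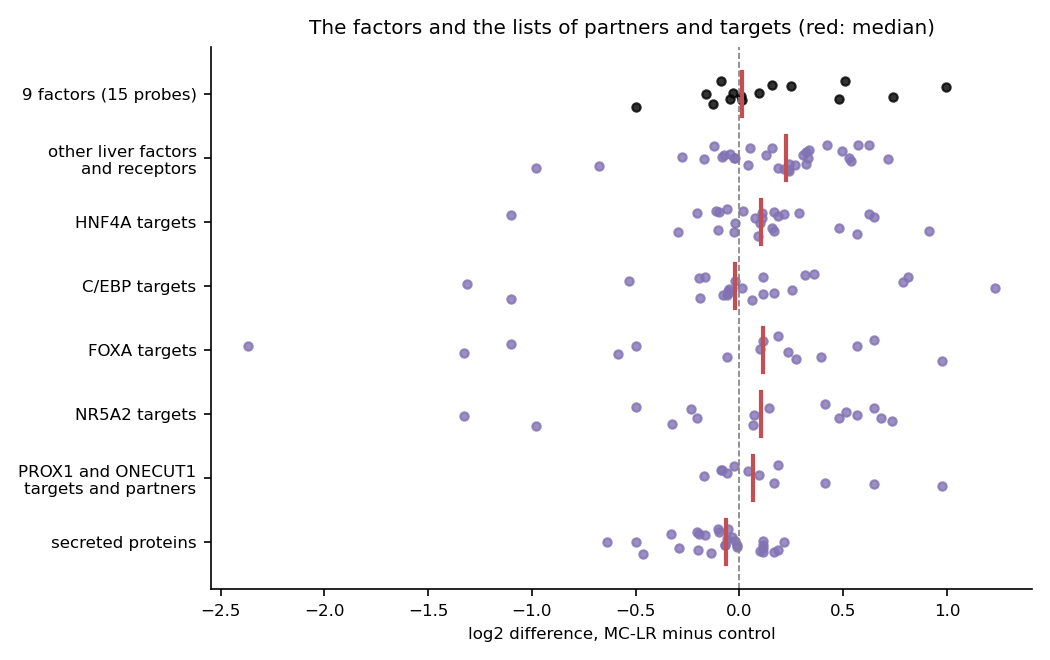
Log2 difference between MC-LR and control livers (horizontal axis) for the 15 probes of the 9 factors and for the genes of each list by their brightest probe, with the median in red. Medians run from -0.06 for the secreted proteins to 0.22 for the other liver factors and receptors, and each of the 7 lists drawn has genes on both sides of 0.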

How the data were processed

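Values in the deposited table are log2, and the series' design text states that the authors applied GeneSpring's quantile normalization between arrays. All columns have a median of 5.94. Each correlated across probes at r of 0.9982 or more with log2 processed signal of the matching scan, so the scale is log2 without centring by gene, and larger values mean more signal. This table was the main source because the values of the members are taken from it by probe name. The scanner files hold intensity columns per the file headers: a processed signal, with background removed and spatial trend corrected, and raw spot and background signals. Their coordinates are of mouse build mm9. The submitters' processing notes name Feature Extraction 10.7. Detection flags and alternatives came from these files.

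The 28506 probes tested were those with most spots well above background in each of the 3 livers of either group. limma 3.58.1 (lmFit and eBayes under R 4.3.3) gave two-sided tests with 4 residual and 2.18 prior degrees of freedom and Benjamini-Hochberg adjustment over all of these probes. Lists used each gene's brightest tested probe. Probes of list genes were named by accession in a RefSeq table of GRCm38.p6 (27761 probes), then by symbol or synonym (5991), otherwise by the file's name (7422). Every probe of the 9 factors is named, and of each list up to 3 genes with the smallest p, beside those said to be named after their values were seen. The members and lists were chosen with earlier results of these data known. On simulated data of the same 28506 probes (20 runs, 200 changed probes), the test recovered 43.6% of log2 changes of 1 and 80.8% of those of 2, with 5.69% of calls false. The simulation drew independent normal noise for each probe and had no slide effect, so these shares hold for that setting only. Alternatives were other scalings, normexp, filters, 1 probe per gene, slide, the replicate number, moderation, the threshold and each array left out. Some genes of the lists are not reported here by name.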

Additional observations from a re-analysis of the deposited data

How the results depend on the processing

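Under every alternative run, 0 of the 15 probes of the 9 factors passed (limma), with 0 to 4 at an unadjusted p under 0.05 and a lowest adjusted p of 0.135. Of the 15 probes, 7 kept their sign in all 16 or 17 alternatives. Over the whole array 3 probes passed, against 1 with 75th percentile scaling, with median scaling or with probes well above background on all 6 arrays, 13 with slide as a block, 0 on slide 2 alone (3322 at an unadjusted p under 0.05), 5 at an adjusted p under 0.1, and 1 to 70 with 1 array left out, 70 being without control 3 and 1 without MC-LR 1. Signs turned as follows, where all values are log2 differences and the cause was not tested. Nr5a2 gave 0.00812 with 75th percentile and 0.0425 with median scaling, and Prox1 probe 3 gave -0.0136 with normexp. With slide as a block and on slide 2 alone, which give the same differences, Hnf4a probe 1 gave 0.0949, Cebpb probes 1 and 2 gave -0.25 and -0.26, and Prox1 probe 1 gave 0.38. With 1 array left out, the ranges were -0.41 to 0.0524 for Hnf4a probe 1, -0.23 to 0.0281 for Hnf4a probe 2, -0.19 to 0.16 for Cebpb probe 1, -0.0727 to 0.36 for Cebpb probe 2, -0.11 to 0.38 for Foxa2, -0.0777 to 0.0494 for Nr5a2, -0.30 to 0.19 for Prox1 probe 1 and -0.14 to 0.14 for Prox1 probe 3. The titles number the mice of both groups 1 to 3. Deviations of same-numbered mice from their group means correlated across probes at 0.17, -0.30 and -0.18. Deviations within a group of 3 sum to 0, so these values are tied to each other. They cannot decide whether the numbers pair the mice. With the replicate block 0 probes passed in all (2875 at an unadjusted p under 0.05), 0 of them members, and only control 1 correlated best with its own number.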

Other observations

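The 3 genes whose signal lay closest to that of Hnf4a probe 2 across the 6 arrays were Mrc1 (Pearson r = 0.994), Meaf6 (r = 0.992) and Gata2 (r = 0.990). They were picked as the closest of 28506 probes over only 6 arrays, so these values describe the arrays and carry no test.

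In a list of 21 genes of the circadian clock and its outputs, 13 lay higher and 2 lower at an unadjusted p under 0.05 (7.52% and 5.36% of all genes), with a median log2 difference of 1.11 and 0 past the adjusted threshold over all probes (limma). Wee1 was not well above background on any control array and averaged 1.72 in controls and 5.52 in MC-LR livers (log2). Against the lowest signal well above background it was at least 4.24-fold higher. Its adjusted p of 0.163 (limma) rests on control values at background. Ciart and Bhlhe41 were well above background on 1 control array each and Per3 on 2. These genes and Wee1 were tested only because of their MC-LR arrays, where they were high, and they are among the 13. Usp2 gave 4.41 ± 0.59 (adjusted p = 0.163) and Hlf 0.99 ± 0.16 (adjusted p = 0.178). Blocking on slide gave 2.97 and 1.13 for Usp2 and Hlf. Cebpd, another C/EBP gene, named after its values were seen, averaged 12.67 (control) and 12.00 (MC-LR), a difference of -0.68 ± 0.23 (adjusted p = 0.328).

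Markers of other liver cells had a median difference of -0.35 over 9 endothelial, -0.23 over 8 Kupffer and macrophage, -0.22 over 7 lymphocyte, -0.72 over 4 neutrophil, -0.15 over 8 stellate and fibroblast and -0.10 over 7 bile duct markers. With slide as a block the endothelial median was on the other side, at 0.03 with 6 of 9 above 0, and the others were -0.65 (Kupffer and macrophage), -0.66 (lymphocyte), -1.36 (neutrophil), -0.42 (stellate and fibroblast) and -0.67 (bile duct). Hepatocyte markers had a median of 0.06 over 8, and 0.02 with slide as a block. Markers of fetal hepatoblasts had a median of -0.03 over 5, with Afp at 6.95 to 7.54 in controls and 6.46 to 8.91 with MC-LR. Adjusted over all probes, 0 of these markers passed (limma). At an unadjusted p under 0.05, Cyp2e1 (0.58) and Lrat (0.95, and 0.20 with slide as a block) lay on the higher side (7.52% of all genes). Pecam1 (-0.54), Cdh5 (-0.44) and Sox9 (-0.73) lay on the lower side (5.36% of all genes).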
